A study of Mus musculus with 12 samples.

Results

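The genes described here are 7 genes of cholesterol synthesis and its control: the transcription factor gene Srebf2, the sterol sensor genes Insig1 and Insig2, and the enzyme genes Hmgcs1, Idi1, Sqle and Cyp51. They were chosen by name as targets and sensors of the SREBP2 pathway, and 6 of the 7 were found by symbol among the 21490 gene symbols of the table. Hmgcs1 was not analysed here. Nascent RNA, that is RNA still held on the chromatin of purified nuclei, was profiled by Nascent-Seq in 12 independent liver samples from adult male C57BL/6 mice, 3 to 6 months old and housed in 12 hr of light and 12 hr of darkness. Livers were taken at ZT0, ZT4, ZT8, ZT12, ZT16 and ZT20 (zeitgeber time, where ZT0 is lights on and ZT12 is lights off). Each time was sampled in 2 replicates, and no group was treated or mutant.

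Cholesterol is made from acetyl-CoA through mevalonate, isoprenoid units, squalene and lanosterol. SREBP2, the product of Srebf2, is made as a precursor in the membrane of the endoplasmic reticulum and is carried by SCAP to the Golgi, where it is cut so that its active part can enter the nucleus and switch on the genes of synthesis and uptake. When sterols are plentiful, INSIG1 and INSIG2 hold SCAP back in the endoplasmic reticulum. Insig1 is itself a target of SREBP, whereas a liver transcript of Insig2 is known to be lowered by insulin.

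Signal was given in reads per base pair of merged exons (rpbp), with the libraries brought to an equal read total by the authors, so that levels can be compared between genes. The sum of the signal over all symbols ranged from 118342 to 160545 rpbp among libraries, and the library with the highest sum, ZT20 replicate 1, drew 37.1% of it from its 20 highest symbols. The 9 of 10 hepatocyte markers with a row summed to between 905 and 2199 rpbp. Kupffer cell markers summed to between 18.1 and 64.8 rpbp, endothelial markers to between 12.6 and 25.7 rpbp and stellate cell markers to between 8.0 and 12.8 rpbp. The lymphocyte markers summed to 3.0 rpbp at most and the bile duct markers to 1.0 rpbp at most. In such bulk liver nuclei, fewer cells of a type and less RNA per cell cannot be told apart. A gene was tested if it passed 6 rpbp in at least 1 library, which 6284 symbols did. Of the 6 genes with a row, Srebf2, Insig1, Insig2 and Cyp51 passed, and Idi1 and Sqle did not. Sqle reached 5.9 rpbp, just under the threshold, and the lowest maximum among those that passed was that of Srebf2, 11.1 rpbp.

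The 2 sensor genes had the highest signal of the group and the enzymes the lowest. Averaged over the 12 libraries, the level was 33.8 ± 22.6 rpbp for Insig2 (SD, n = 12) and 31.5 ± 19.8 rpbp for Insig1 (SD, n = 12), and these neighbours overlapped over nearly their whole range. Srebf2 followed at 6.74 ± 2.47 rpbp and Cyp51 at 4.93 ± 2.29 rpbp (SD, n = 12), which also overlapped, and then came Sqle at 1.77 ± 1.48 rpbp and Idi1 at 0.342 ± 0.370 rpbp (SD, n = 12). Among tested genes, 94.3% had a lower mean than Insig2 and 16.9% had a lower mean than Cyp51. The 4 genes above the threshold varied more than the typical tested gene. Their coefficient of variation ran from 0.366 for Srebf2 to 0.669 for Insig2, and the median over tested genes was 0.252. It was 0.840 for Sqle and 1.08 for Idi1. Both are below the threshold, where rounding and depth limit the values, so they cannot be set against the tested genes.

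To ask which of these genes follow the day in their transcription, the share of the variance of the 12 values that lies in a 24-hr cosine (F24) was computed, together with its permutation p. Insig2 was called rhythmic and was the only one of the 4 tested genes to be so, against 15.2% of all tested genes (1 of 4). It also passed the limits for a strong rhythm (F24 over 0.6), as 6.38% of tested genes did. Insig2 lies on the minus strand at chr1:123200930-123229157 (mm9), and no other symbol of the table overlaps it except Capn8, whose listed range of 89731499 bases is far longer than a gene. The promoter window of its most upstream start is shown because Insig2 had the one rhythm call of this group, which rests on an unadjusted p. The sequence is from RefSeq (GRCm38.p6, minus strand, chr1:121332540-121332839), runs 5′ to 3′ from 250 bases before the start to 50 bases from it, and has its 3 CCAAT boxes (NF-Y letters, CCAAT or its complement ATTGG) in capitals.
Insig2: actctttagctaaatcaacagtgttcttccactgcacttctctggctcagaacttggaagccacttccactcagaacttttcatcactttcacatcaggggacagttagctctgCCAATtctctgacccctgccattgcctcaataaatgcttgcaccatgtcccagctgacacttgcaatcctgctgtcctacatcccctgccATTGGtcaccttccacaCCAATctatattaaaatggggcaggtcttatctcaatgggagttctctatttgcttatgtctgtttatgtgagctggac
The windows of the other 2 Insig2 starts held none of the 4 motifs searched.

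Insig2 nascent RNA was high from late night to early day and low around lights off. In replicate 1 it read 40.7, 39.1, 14.5, 12.1, 22.9 and 65.0 rpbp at ZT0, ZT4, ZT8, ZT12, ZT16 and ZT20. In replicate 2 it read 60.4, 34.8, 28.4, 8.1, 7.1 and 72.5 rpbp at the same times. Both ZT20 libraries were above all others, and both ZT12 libraries were below every library of ZT0, ZT4, ZT8 and ZT20. The mean fell from 68.8 ± 5.3 rpbp at ZT20 (SD, n = 2) to 10.1 ± 2.8 rpbp at ZT12 (SD, n = 2), a ratio of 6.81.

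The F24 of Insig2 was 0.726 with its maximum at ZT22.9 (one-sided permutation test, p = 0.00508), but the p adjusted over all tested genes was 0.130. Taken by themselves, the 2 replicate series gave an F24 of 0.787 with the maximum at ZT22.3 and an F24 of 0.740 with the maximum at ZT23.4. Neither series passed alone (one-sided exact permutation test over 720 orders, p = 0.117 and p = 0.133). The rhythm call was kept on leaving out any 1 of the 12 libraries, with F24 between 0.683 and 0.802 and p between 0.00235 and 0.0131. Insig2 was also the only one of the 4 with a difference between time points by limma's moderated F-test (adjusted p = 0.0270), against 7.65% of tested genes. That call was lost without any 1 of the 6 libraries of ZT0, ZT12 and ZT20, when the adjusted p lay between 0.0560 and 0.0726. The libraries of ZT8 and ZT20 were sequenced in 2 lanes and the others in 1. In a further test, values were centred and permuted within libraries of equal lane number. The F24 of Insig2, then a share of the variance within these lane groups only, was 0.840 (one-sided permutation test, p = 0.00686). It is not on the same footing as the 0.726 above.

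Insig1, which encodes the partner sensor, was not called rhythmic. It lies on the plus strand at chr5:28397907-28405201 (mm9), and its RefSeq promoter window (GRCm38.p6, plus strand, chr5:28071162-28071461) is shown for contrast with that of Insig2. Capitals mark a CCAAT box in reverse (ATTGG) and a run in which the REV-ERB and ROR letters AGGTCA overlap the E-box CACGTG, the only E-box in the 8 windows searched.
Insig1: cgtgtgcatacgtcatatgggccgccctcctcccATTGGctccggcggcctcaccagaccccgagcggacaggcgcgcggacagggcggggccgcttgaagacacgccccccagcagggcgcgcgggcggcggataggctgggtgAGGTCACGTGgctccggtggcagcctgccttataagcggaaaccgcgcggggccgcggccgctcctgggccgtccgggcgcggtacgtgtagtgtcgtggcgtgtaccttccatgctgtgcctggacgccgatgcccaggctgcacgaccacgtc
Of the 32851 promoter windows of the table, 37.4% held a CCAAT box, 16.3% held AGGTCA and 7.15% held CACGTG on either strand. A match of letters is a description and not a site of binding.

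In replicate 1 Insig1 read 20.1, 17.0, 18.3, 13.2, 23.6 and 52.9 rpbp from ZT0 to ZT20. In replicate 2 it read 51.6, 24.6, 70.5, 29.7, 6.4 and 50.0 rpbp. The 2 libraries of ZT8 differed widely, with 18.3 against 70.5 rpbp, whereas those of ZT20 were close, with 52.9 and 50.0 rpbp. Both ZT20 libraries were high, but so were replicate 2 of ZT0 and of ZT8. The F24 was 0.0671 (one-sided permutation test, p = 0.725), and limma's F-test over time points gave an adjusted p of 0.334. The F24 ranged from 0.0206 without ZT0 replicate 2 to 0.403 without ZT8 replicate 2 (one-sided permutation test, p = 0.922 and p = 0.143). Replicate 1 alone gave an F24 of 0.544 with the maximum at ZT20.0 and replicate 2 alone gave 0.197 (one-sided exact permutation test, p = 0.167 and p = 0.733). As a description, Pearson's r of Insig1 and Insig2 over the 12 libraries, which they share, was 0.670.

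**Figure D1:**
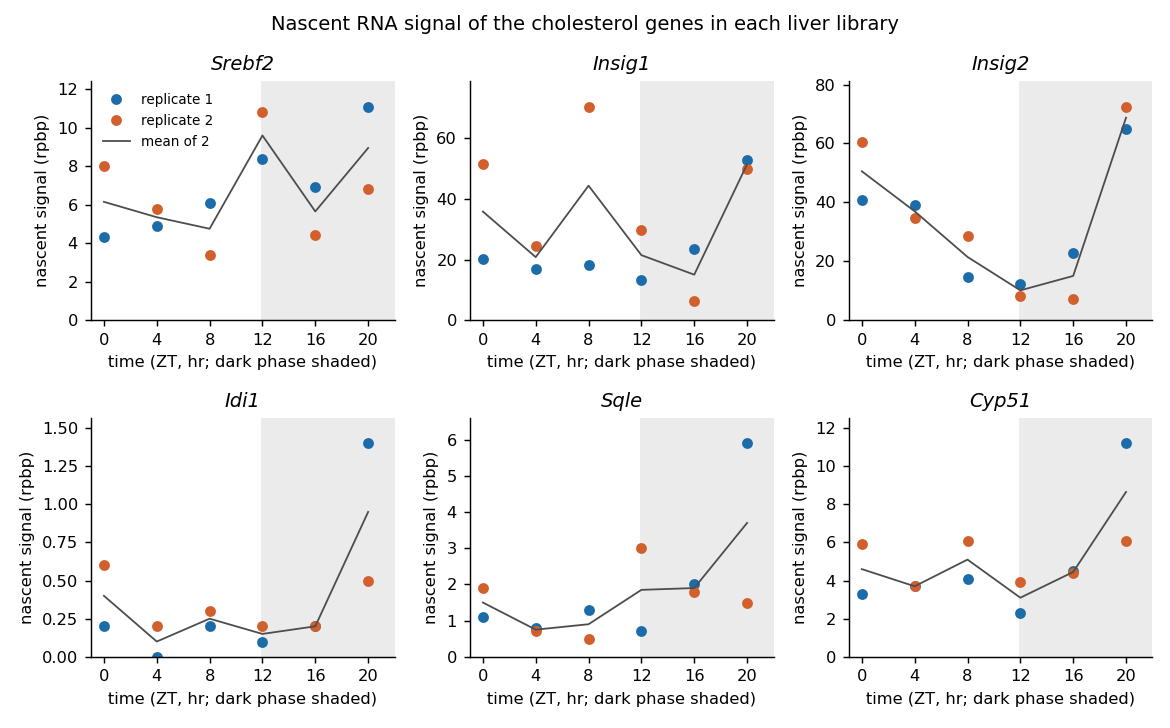
Nascent RNA signal in rpbp (linear axes that start at 0, one scale per gene) against time in ZT hours for the 6 genes with a row. Points are the 12 libraries, coloured by replicate, and the line joins the means of 2 replicates. Insig2 runs from a mean of 68.8 rpbp at ZT20 to a mean of 10.1 rpbp at ZT12, and Idi1, Sqle and Cyp51 have their highest point in ZT20 replicate 1.

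Because both sensors are read in the same library, their ratio does not depend on the scaling of that library. This ratio was examined after the values of both genes were seen. Insig2 exceeded Insig1 in both libraries of ZT0, ZT4 and ZT20, with 2.02 and 1.17 at ZT0, 2.30 and 1.41 at ZT4, and 1.23 and 1.45 at ZT20. It was below Insig1 in both libraries of ZT8 (0.792 and 0.403) and of ZT12 (0.917 and 0.273), and at ZT16 the replicates fell on either side of 1 (0.970 and 1.11). The log2 ratio thus ranged from -1.87 to 1.20, with an F24 of 0.556 and its maximum at ZT23.4 (one-sided permutation test, p = 0.0160). Without ZT0 replicate 1 the p was 0.0524 and without ZT12 replicate 2 it was 0.0596. Leaving out any other library kept it under 0.05.

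**Figure D2:**
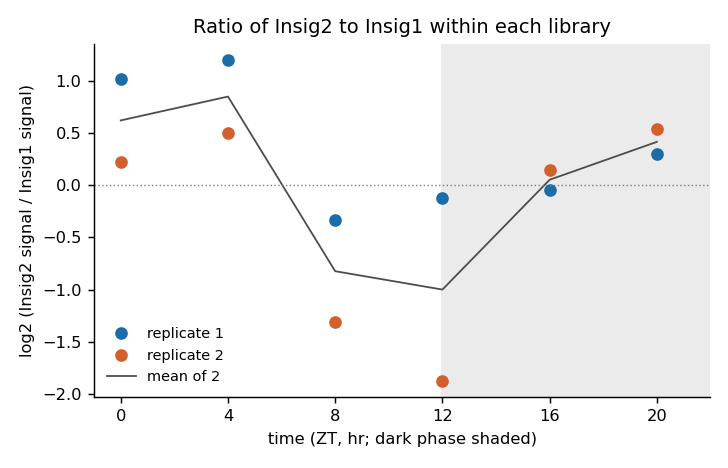
Log2 of the ratio of Insig2 to Insig1 signal within each library, against time in ZT hours. Points are libraries coloured by replicate, the line joins the means of 2 replicates, and the dotted line marks equal signal. Both libraries lie above 0 at ZT0, ZT4 and ZT20 and below 0 at ZT8 and ZT12.

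Srebf2, which encodes the activator of the pathway, lies on the plus strand at chr15:81977699-82035390 (mm9). In replicate 1 it read 4.3, 4.9, 6.1, 8.4, 6.9 and 11.1 rpbp from ZT0 to ZT20. In replicate 2 it read 8.0, 5.8, 3.4, 10.8, 4.4 and 6.8 rpbp. Both libraries of ZT12 were high, but ZT20 replicate 1 was higher still and ZT0 replicate 2 came close to them. It was not called rhythmic (F24 = 0.173, one-sided permutation test, p = 0.422) and did not pass limma's F-test over time points (adjusted p = 0.286). The F24 was 0.393 without ZT16 replicate 2 (one-sided permutation test, p = 0.142) and lay between 0.130 and 0.214 on leaving out any other library.

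The 3 enzymes with values act at separate steps. Idi1 interconverts the isoprenoid building blocks, Sqle adds the oxygen to squalene before ring closure, and Cyp51 removes a methyl group from lanosterol. Cyp51 lies on the minus strand at chr5:4080674-4104697, Idi1 on the plus strand at chr13:8885220-8891614 and Sqle on the plus strand at chr15:59146647-59162748 (all mm9). The promoter windows of Cyp51 (GRCm38.p6, minus strand, chr5:4104648-4104947) and Idi1 (GRCm38.p6, plus strand, chr13:8885356-8885655) are shown because these 2 genes had the most alike profiles of the group. Capitals mark CCAAT or ATTGG.
Cyp51: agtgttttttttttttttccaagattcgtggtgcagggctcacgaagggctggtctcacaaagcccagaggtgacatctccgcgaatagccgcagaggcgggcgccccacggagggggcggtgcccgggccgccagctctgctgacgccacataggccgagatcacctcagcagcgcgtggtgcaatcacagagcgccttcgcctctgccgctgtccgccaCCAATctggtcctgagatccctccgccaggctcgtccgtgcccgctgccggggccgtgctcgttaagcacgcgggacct
Idi1: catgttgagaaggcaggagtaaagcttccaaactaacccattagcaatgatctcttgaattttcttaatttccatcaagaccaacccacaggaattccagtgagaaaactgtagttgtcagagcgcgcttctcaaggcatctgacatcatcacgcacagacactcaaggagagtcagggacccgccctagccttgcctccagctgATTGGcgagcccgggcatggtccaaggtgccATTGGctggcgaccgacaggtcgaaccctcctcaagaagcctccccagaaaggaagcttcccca
The letters of the sterol regulatory element searched, TCACNCCAC, stood in neither window. Among the 6 genes with a window they stood once, in that of Hmgcs1, and 1.24% of all windows held them.

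In replicate 1 Cyp51 read 3.3, 3.7, 4.1, 2.3, 4.5 and 11.2 rpbp from ZT0 to ZT20. In replicate 2 it read 5.9, 3.7, 6.1, 3.9, 4.4 and 6.1 rpbp. ZT20 replicate 1 stood far above the other libraries, and ZT20 replicate 2 was matched by ZT8 replicate 2. Cyp51 was not called rhythmic (F24 = 0.257, one-sided permutation test, p = 0.240), and limma's F-test gave an adjusted p of 0.188. Leaving out 1 library moved the F24 from 0.105 without ZT20 replicate 1 to 0.413 without ZT8 replicate 2 (one-sided permutation test, p = 0.625 and p = 0.0540), and no such setting gave a call.

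Sqle read 1.1, 0.8, 1.3, 0.7, 2.0 and 5.9 rpbp in replicate 1. In replicate 2 it read 1.9, 0.7, 0.5, 3.0, 1.8 and 1.5 rpbp. Its 5.9 rpbp in ZT20 replicate 1 was again the highest value, whereas replicate 2 of ZT20 was below both libraries of ZT16 and below ZT0 replicate 2. When the threshold was lowered to 3 rpbp so that Sqle could be tested, it was not called rhythmic (F24 = 0.328, one-sided permutation test, p = 0.111).

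Idi1 read 0.2, 0.0, 0.2, 0.1, 0.2 and 1.4 rpbp in replicate 1. In replicate 2 it read 0.6, 0.2, 0.3, 0.2, 0.2 and 0.5 rpbp. Most of these values are within a few steps of the 0.1 rpbp to which the table was rounded, and reads that Idi1 shares with its paralog Idi2 may have been lost, so these levels are uncertain. The 1.4 rpbp of ZT20 replicate 1 alone stood clear of the rest.

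The enzymes were high together in 1 library. Including the 17 other synthesis enzymes of a list of 37 cholesterol genes set out by function, 19 of 20 enzymes had their highest value in ZT20 replicate 1, against 5.86% of all tested genes. The exception was Ggps1, which makes a precursor of other isoprenoids and was named after its values were seen. Of the 20, 14 of 14 enzymes above the threshold and 5 of 6 below it were highest there. Shares of tested genes set beside the 20 enzymes, here and below, are thus not of like level. However, 5 of the 13 tested enzymes outside the group, Fdft1 among them, passed the threshold in this library alone. These 5 could only be highest there, so the count of 14 of 14 was in part fixed by the threshold and is no separate support. The ratio of that library to the median of the other 11 was 2.96 in the median over the 20 enzymes, and 1.03 over all tested genes. Fdft1, which joins farnesyl units into squalene and had the highest mean of its step, read 10.2 against a median of 3.9 rpbp, a ratio of 2.62. Sc5d, the desaturase with the highest mean among the sterol ring enzymes, read 76.0 against 32.5 rpbp, a ratio of 2.34. Of the other 23 genes, that is the 3 regulators of the group and 20 listed genes of sensing, uptake, storage and export, 4 were highest in this library, Srebf2 among them.

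The second ZT20 library did not share this level. ZT20 replicate 1 exceeded replicate 2 for 19 of 20 enzymes, against 58.2% of tested genes. The median ratio was 2.41 over the enzymes and 1.06 over all tested genes. The count of enzymes highest in ZT20 replicate 1 was 18 of 20 after the libraries were rescaled to equal medians, and 18 of 20 after the trend of signal with exon GC content was removed. The same library also had the highest summed endothelial markers, 25.7 rpbp within a range of 12.6 to 25.7 rpbp, and the highest share of signal in its 20 highest symbols. Their part in the result was not tested.

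Replicates differed in a common direction at other time points too. At ZT0 replicate 2 was higher for 20 of 20 enzymes, as it was for 76.5% of all tested genes, and the median ratio of replicate 1 to replicate 2 was 0.575 for the enzymes and 0.838 for all tested genes. At ZT12 replicate 2 was higher for 19 of 20 enzymes, against 60.8% of tested genes. At ZT16 it was replicate 1 that was higher for 17 of 20 enzymes, against 59.6% of tested genes. At ZT4 replicate 2 was higher for 13 of 20 enzymes and replicate 1 for 5, and replicate 2 was higher for 52.8% of tested genes. At ZT8 replicate 2 was higher for 11 of 20 enzymes and replicate 1 for 8, and replicate 2 was higher for 46.1% of tested genes. At the low end, ZT16 replicate 2 held the lowest value of 10 of 20 enzymes and of 21.1% of tested genes, and its signal over all tested genes deviated by -0.20 on the log2 scale in the median.

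**Figure D3:**
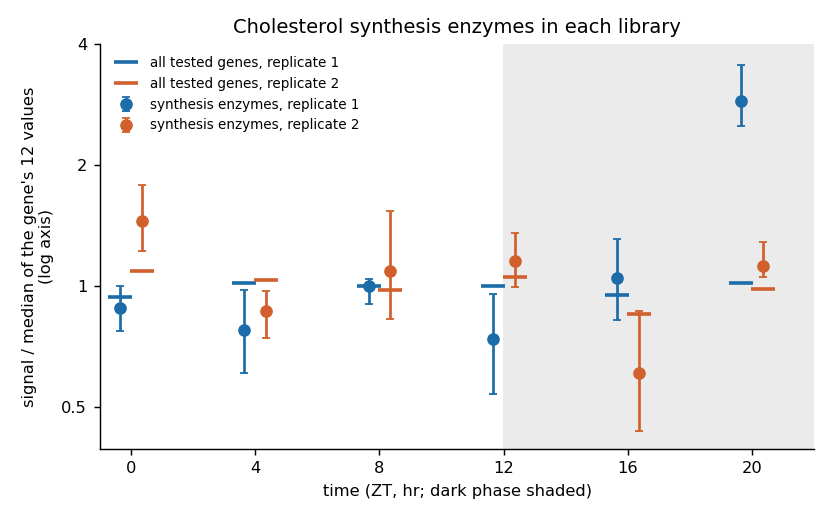
Signal of the 20 cholesterol synthesis enzymes in each library, each divided by the median of the enzyme's own 12 values (log axis), against time in ZT hours. Circles are medians over the 20 enzymes with the interquartile range, dashes are medians over all tested genes, and colour is the replicate. ZT20 replicate 1 stands at 2.89, ZT20 replicate 2 at 1.13 and ZT16 replicate 2 at 0.610, while the dashes stay between 0.855 and 1.09.

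As a description of how alike these profiles were, Pearson's r of log2(rpbp + 1) over the 12 libraries was 0.899 for Idi1 and Cyp51, 0.736 for Idi1 and Sqle, and 0.650 for Sqle and Cyp51. Without ZT20 replicate 1 these fell to 0.760, 0.313 and 0.225. Srebf2 and Insig2, at 0.0242, were the least alike of the 15 pairs. All pairs share the libraries and their scaling. The tested genes outside the group most like Idi1 were Nsdhl (r = 0.947), a sterol ring enzyme, and Cnbp (r = 0.875). For Cyp51 they were the clone-named AK019348 (r = 0.928) and again Nsdhl (r = 0.885), which read 9.5 rpbp in ZT20 replicate 1 against a median of 2.5 rpbp in the other libraries. For Sqle they were D430028G21Rik (r = 0.839) and Rbm3 (r = 0.836), and for Srebf2 they were Scarf1 (r = 0.940) and Cecr5 (r = 0.921). Insig1 was most like Fndc3a (r = 0.951) and BC076616 (r = 0.942). For Insig2 both names, mKIAA1724 (r = 0.960) and D5Wsu178e (r = 0.953), have the same start and end on chromosome 5 and so are 1 locus. Among the 10 tested genes most like each, the list of cholesterol genes held 5 for Idi1, 3 for Sqle, 1 for Cyp51, 1 for Srebf2 and 0 for either sensor. Of all 6284 tested genes, 28 were on the list. However, 5 of the 13 tested synthesis enzymes outside the group, Nsdhl among them, passed the threshold in ZT20 replicate 1 alone. Idi1, Sqle and Cyp51 were highest in that same library, and these counts were not repeated without it, so they give no support for a shared course over the day.

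To set the dark phase of the day (ZT12, ZT16 and ZT20) against the light phase (ZT0, ZT4 and ZT8), the means of log2(rpbp + 1) were compared with limma. None of the 4 tested genes differed at an adjusted p under 0.05, which 4.19% of all tested genes did, and 2 of 4 had an unadjusted p under 0.05, as 21.1% of tested genes did. Insig2 was lower in the dark by a log2 difference of -0.65 ± 0.27 (SE, adjusted p = 0.203, limma), with a dark range of 7.1 to 72.5 rpbp and a light range of 14.5 to 60.4 rpbp. Without ZT16 replicate 1 the difference was -0.91 and passed the test (adjusted p = 0.0327). Srebf2 was higher in the dark by 0.48 ± 0.20 on the log2 scale (SE, adjusted p = 0.201, limma), with 4.4 to 11.1 rpbp in the dark and 3.4 to 8.0 rpbp in the light. The phases overlapped for both genes.

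The intervals of the other 2 genes included 0. Cyp51 differed by 0.13 on the log2 scale (95% interval -0.28 to 0.55) and Insig1 by -0.28 (95% interval -1.19 to 0.63). Over all tested genes the median difference was -0.050. The summed stellate cell markers, none of 4 above the threshold, lay between 8.0 and 10.4 rpbp in the light and between 11.4 and 12.8 rpbp in the dark, so that this sum separated the phases. Its part in these differences was not tested.

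Over all 20 synthesis enzymes, 15 had a higher mean in the dark than in the light, against 41.8% of tested genes, with a median log2 difference of 0.13. Without ZT20 replicate 1 the count was 12 of 20, against 39.6% of tested genes, and the median 0.0087. After the libraries were rescaled to equal medians it was 16 of 20, against 50.0% of tested genes. None of the 13 tested enzymes outside the group was called rhythmic or differed between the phases at an adjusted p under 0.05 (limma). At an unadjusted p under 0.05, 1 of the 13 passed the permutation test against 16.4% of tested genes, 2 passed limma's F-test over time points against 27.6%, and 3 passed the comparison of phases against 21.1%, with 2 of these higher in the dark. These shares were near or below those of all tested genes, and 5 of the 13 enzymes were above 6 rpbp in ZT20 replicate 1 alone.

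Of the 37 listed genes 28 were tested and 5 were called rhythmic, a share near the 15.2% of all tested genes, and the count was 8 without ZT16 replicate 2. By role, the calls were 3 of 4 tested genes of storage and export, 1 of 7 of uptake and transport, 1 of 4 of sensing and processing and 0 of 13 of synthesis. Abcg5 and Abcg8, whose products pair to pump sterols into bile, had an F24 of 0.734 with the maximum at ZT6.4 and of 0.608 with the maximum at ZT5.9 (one-sided permutation test, p = 0.00376 and p = 0.00567). The mean of Abcg5 was 44.9 ± 10.3 rpbp at ZT4 and 6.70 ± 2.26 rpbp at ZT16 (SD, n = 2), and that of Abcg8 was 31.3 ± 12.3 rpbp and 5.55 ± 1.34 rpbp (SD, n = 2). Soat2, which esterifies cholesterol for storage, had an F24 of 0.625 with the maximum at ZT3.7 (one-sided permutation test, p = 0.0103).

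The other 2 genes called rhythmic were Mbtps1, the protease that makes the first cut in SREBP, with an F24 of 0.741 and the maximum at ZT5.4 (one-sided permutation test, p = 0.00509), and Npc1, which moves cholesterol out of lysosomes, with an F24 of 0.588 and the maximum at ZT6.8 (one-sided permutation test, p = 0.0112). Mbtps1 moved within a narrow range of 7.2 to 12.0 rpbp. The 5 maxima lay between ZT3.7 and ZT6.8, in the light, and that of Insig2 at ZT22.9. The share of all genes called rhythmic with a maximum in that span was not computed. Abcg5 and Abcg8 are neighbours and may not be separate observations. No adjusted permutation p of these genes was under 0.05.

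Abcg5 and Abcg8 were the only listed genes that differed between the phases, both lower in the dark, by log2 differences of -0.97 ± 0.20 (SE, adjusted p = 0.0257, limma) and -0.89 ± 0.19 (SE, adjusted p = 0.0326, limma). Among all tested genes 2.37% were lower in the dark at that limit. The count of 2 fell to 0 without any 1 of ZT20 replicate 1, ZT0 replicate 2, ZT4 replicate 2, ZT8 replicate 2, ZT12 replicate 2 and ZT20 replicate 2. It was 1 without ZT8 replicate 1 or ZT16 replicate 2, 3 without ZT0 replicate 1, and 4 without ZT16 replicate 1. Both genes lie head to head on chromosome 17 and were counted without regard to strand. Among the genes with the highest mean of their role, Srebf1, the gene for the related SREBP1, averaged 65.2 rpbp, Lrp1, an endocytic receptor, 68.6 rpbp, and Abca1, a cholesterol efflux pump, 35.4 rpbp, and none of these 3 was called rhythmic or different between the phases.

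**Figure D4:**
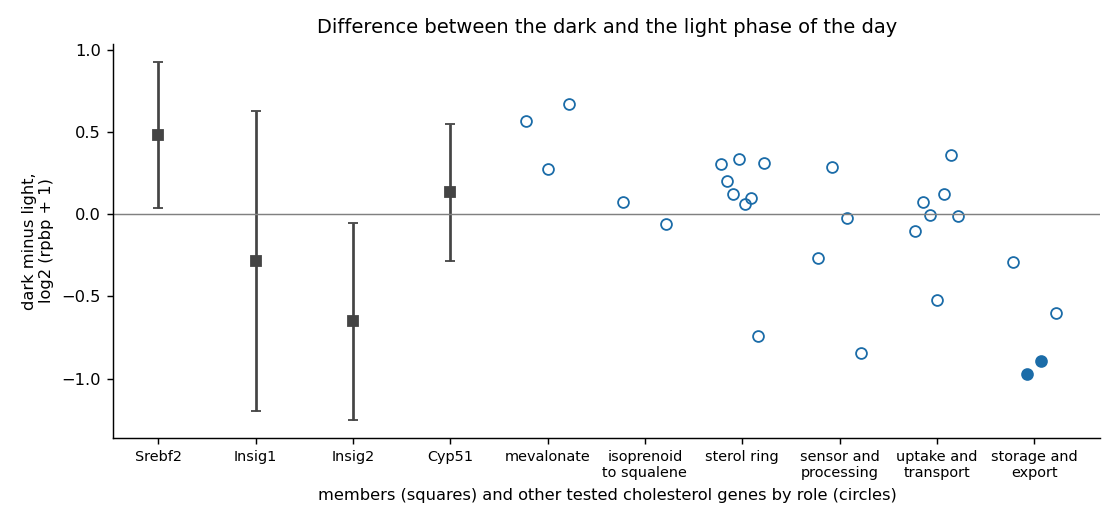
Dark minus light difference in log2(rpbp + 1) for the 4 tested genes of the group (squares with 95% intervals from limma) and for the 28 other tested cholesterol genes by role (circles, filled where the adjusted p is under 0.05). Values below 0 are lower in the dark. The filled circles are Abcg5 and Abcg8, at -0.97 and -0.89, and the interval of Insig2 runs from -1.25 to -0.052.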

How the data were processed

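Nascent RNA was measured in 12 liver samples, grouped by the time and replicate number in their labels. The authors aligned reads (base calls from CASAVA 1.7 per the labels) to mm9 with TopHat and kept uniquely mapped reads. The deposited signal is the coverage of the merged exons of a symbol per base pair (rpbp), without strand, scaled to an equal number of reads per library and rounded to 1 decimal. Deposited F24, phase and p-value columns hold the authors' own rhythm statistics and were not used. The table held 21490 symbols, and 27919 blank lines were dropped. RNA-Seq and ChIP-Seq data of the study were not analysed here.

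The members and the lists were chosen with earlier results of these data known. The 4 enzyme genes, Srebf2 and both sensors were looked up by symbol. The text names these genes, listed pathway genes that were called or had the highest mean of their role, and the 2 tested genes most correlated with each member. Some genes that this rule selects are not reported here.

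The tested genes passed 6 rpbp in 1 library or more. F24 was computed on linear values with a one-sided p from 100000 permutations. The limits for a rhythm, after the study, were an F24 above 0.45, a ratio of highest to lowest value above 1.5 and an unadjusted p under 0.05 (for a strong rhythm an F24 above 0.6 and a ratio above 1.75). limma 3.58.1 (R 4.3.3) was fitted on log2(rpbp + 1), so fold changes of low genes are understated, and p-values were adjusted by Benjamini-Hochberg over all tested genes. A signal is not a count, so no count model was fitted. Precision is limited by having 2 replicates, and nothing in the labels says more of how replicates were separated, so p-values measure the spread between these samples. Scripts were checked on simulated data (numpy 2.4.6, pandas 2.3.3).

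Coordinates of genes are mm9, with strands from GENCODE M1. Promoter windows (250 bases before to 50 bases from the start) are from RefSeq, GRCm38.p6, and 6 of the 7 members had one. Motifs searched on both strands were a sterol regulatory element (TCACNCCAC), the NF-Y box (CCAAT), the E-box (CACGTG) and the REV-ERB and ROR letters (AGGTCA). The alternatives were thresholds of 3 and 12 rpbp or none, a pseudocount of 0.1, F24 on log2 values, adjusted permutation p, rescaled libraries, removal of each library's trend with exon GC content (medians in 20 bins), a replicate block, lanes as a block and each library left out. The tests of the ratio of Insig2 to Insig1 and the counts over the 20 enzymes were added after seeing the data.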

Additional observations from a re-analysis of the deposited data

How the results depend on the processing

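The rhythm call of Insig2 was kept under every threshold, scaling, GC, block, log and left-out setting tried, and was lost with the adjusted permutation p (0.130), when 0 of the 4 tested genes were called. Leaving out 1 library gave 1 of 4 rhythmic calls throughout, 0 to 1 genes with a difference between time points, 0 to 1 genes with a dark and light difference (Insig2, without ZT16 replicate 1), 5 to 8 rhythmic genes of the pathway list, 0 to 4 pathway genes that differed between the phases, and 11 to 17 of 20 enzymes with a higher mean in the dark. The dark minus light difference of Insig1 turned from -0.28 to 0.033 without ZT8 replicate 2 and to 0.0065 without ZT16 replicate 2, and was -0.60 at its lowest, without ZT8 replicate 1. For both reversals the cause was not tested. A time point with a library left out had 1 library, assumed to vary like the others.

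The labels do not say whether replicate numbers pair the samples, and the correlations below do not settle it. Of 15 correlations between the deviations of same-numbered libraries at 2 time points, 5 were above 0.1 (median 0.073, range -0.12 to 0.32). With the replicate block the counts of calls were 1 rhythmic, 1 with a difference between time points and 0 with a dark and light difference among the 4 tested genes, and 5 rhythmic and 2 dark and light calls among the pathway genes, so that the block moved no count. Values near 0.1 rpbp, as for Idi1, are limited by rounding and depth.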
